A study of Rattus norvegicus with 6 samples.

Results

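Topoisomerases cut, pass and reseal DNA strands, and the tyrosyl-DNA phosphodiesterases release a topoisomerase that has stayed bound to the DNA it cut. The 8 rat genes of this group were the topoisomerase genes Top1, Top1mt, Top2a, Top2b, Top3a and Top3b and the phosphodiesterase genes Tdp1 and Tdp2. They were taken by symbol from the 30560 gene rows of the count table, each symbol matched a single row, and all 8 were among the 12614 rows tested. Their expression was compared between SMNV and Dox libraries from rat mesenchymal stem cells, stromal cells with the capacity to become bone-, fat- or cartilage-forming cells. In SMNV libraries Top2a, Tdp1 and Top1mt were higher, Top2b and Top1 were lower, and Top3a, Top3b and Tdp2 did not pass the test.

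The study made 6 libraries of poly(A) RNA from rat mesenchymal stem cells with the genotype label WT. The labels give 10% serum for all of them. The cells of all 6 had received 200 nM doxorubicin, an anthracycline that induces senescence, for 24 hours, followed by fresh complete medium for 6 days. During those days the cells of the 3 SMNV libraries received 100 µg/ml SMNV, a preparation whose name the labels do not expand, and those of the 3 Dox libraries received vehicle. Cells without doxorubicin were not analysed here, so every value below describes doxorubicin-treated cells. The labels do not say whether the 3 libraries of a group came from separate animals or cultures, and p-values measure the spread between these libraries.

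The libraries held 18640909 to 21506967 estimated counts, of which the 8 genes took 0.0809% to 0.0832% in SMNV and 0.0716% to 0.0783% in Dox. All 10 mesenchymal stromal markers were detected, with Nt5e lowest, at 1.45 CPM in Dox 2 (here CPM of the plain library total). The 10 summed to 69770 to 83081 CPM in SMNV and 40020 to 46672 CPM in Dox. In SMNV 4 passed the test as higher, among them Col1a1 (log2 fold change of SMNV over Dox 1.08) and Col1a2 (1.02). Lower were 3, namely Cd44 (-1.08), Itgb1 (-0.64) and Pdgfra (-0.40). Of 9 haematopoietic markers 5 were at 0 in every library, among them Ptprc. The 9 summed to 6.17 to 7.35 CPM in SMNV and 7.25 to 8.68 CPM in Dox. Most of that came from Cd14, at 3.42 to 5.24 CPM over all libraries, and from Csf1r. Csf1r stood at 1.27 to 2.14 CPM in SMNV and 3.07 to 3.86 CPM in Dox and was lower in SMNV (log2 fold change -0.91). These levels were near or above that of Nt5e, and their source was not tested. The 6 endothelial markers summed to 1.27 to 2.42 CPM in SMNV and 1.45 to 3.04 CPM in Dox, with Cdh5 and Kdr at 0. The highest was Tek, at 1.03 to 2.49 CPM over all libraries. The 4 epithelial markers with a row summed to no more than 1.28 CPM in any library. The 5 smooth muscle markers, which stromal cells also express, summed to 1681 to 1723 CPM in SMNV and 1519 to 1796 CPM in Dox. Most of this was Acta2, which did not pass, nor did Myh11 and Cnn1. Smtn was higher, at 290 to 356 CPM in SMNV and 90.8 to 110 CPM in Dox, and Des lower (log2 fold change -0.26). The share of the 10 most abundant genes was 17.8% to 19.4% in SMNV and 14.4% to 15.2% in Dox, and the part of this difference in the results was not tested.

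By mechanism the topoisomerases fall into families. Type IIA enzymes (Top2a and Top2b) cut both strands and pass a second duplex through the break, type IB enzymes (Top1 in the nucleus, Top1mt in mitochondria) nick a single strand and let it swivel, and type IA enzymes (Top3a and Top3b) pass a single strand through a single-strand gate. Each holds the cut end through a tyrosine, and doxorubicin traps type IIA enzymes in that state. TDP1 mainly hydrolyses the bond between tyrosine and a 3′ DNA end, as TOP1 leaves it, and TDP2 the bond to a 5′ end, as TOP2 leaves it.

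The type IIA pair moved in opposite directions. Top2a encodes the isoform of dividing cells, which untangles sister chromatids and shapes mitotic chromosomes. In CPM, which from here on are counts normalised for library size with TMM factors, it stood at 439, 416 and 411 in SMNV libraries 1 to 3, against 230.0, 204 and 215 CPM in Dox libraries 1 to 3. The lowest SMNV library was well above the highest Dox library, and the fold was close to a doubling. The log2 fold change of SMNV over Dox was 0.97 ± 0.06 (SE; edgeR adjusted p = 1.9e-08 quasi-likelihood test), which is 1.95-fold with a 95% interval of 1.77 to 2.15. Its p ranked 141st of 12614 tested genes, and its absolute log2 fold change lay at the 88.7th percentile.

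Top2b encodes the isoform that dividing and resting cells both carry and that acts in transcription. It stood at 228, 228 and 225 CPM in SMNV libraries, against 322, 292 and 310.0 CPM in Dox libraries. All SMNV libraries lay below all Dox libraries. The coefficient of variation was 0.941% in SMNV and 4.94% in Dox. Counting error alone gives 1.36%, so the closeness of the SMNV values is not read as a result. Top2b fell, with a log2 fold change of -0.44 ± 0.06 (SE; edgeR adjusted p = 1.9e-05), a level 0.737 times that of Dox (95% interval 0.674 to 0.806).

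**Figure D1:**
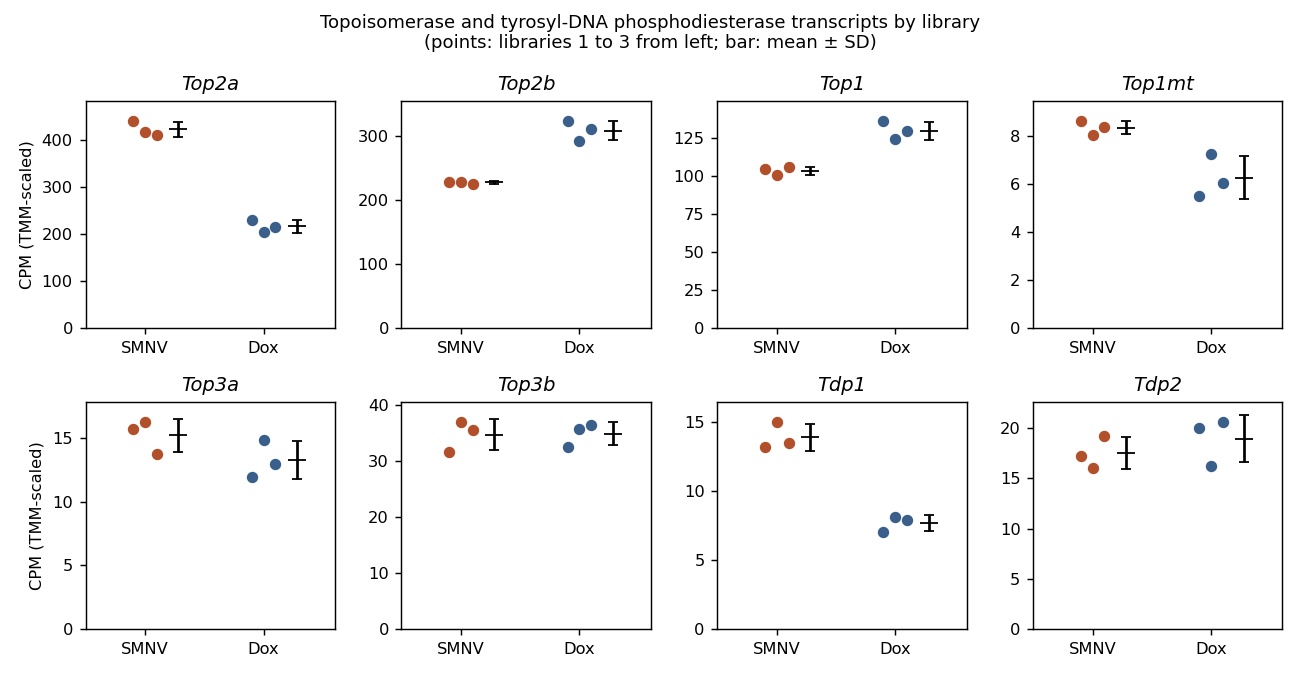
TMM-scaled CPM (linear axis from 0) of the 8 genes in the 3 SMNV and the 3 Dox libraries; points are libraries and the bar beside them is the mean ± SD. For Top2a, Top2b, Top1, Top1mt and Tdp1 the points of the groups do not overlap, with Top2a at 411 to 439 CPM in SMNV and 204 to 230.0 CPM in Dox; for Top3a, Top3b and Tdp2 they do.

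The RefSeq windows from 250 bases before to 50 after the annotated start (build GRCr8) are shown for Top2a and Top2b because the isoforms moved apart, and for Tdp1 because it rose as well. Capitals mark CCAAT, the core of the site read by the trimeric factor NF-Y, and TTTGAA or TTCGAA, the core of the cell cycle gene homology region known from promoters of G2/M genes. Both strands were searched, so that ATTGG and TTCAAA are matches on the other strand, and no marked matches overlap each other. All 3 sequences read 5′ to 3′ in the direction of transcription, Top2a at chr10:84473044-84473343 on the minus strand, Top2b at chr15:11542415-11542714 on the minus strand and Tdp1 at chr6:124892571-124892870 on the plus strand.
Top2a: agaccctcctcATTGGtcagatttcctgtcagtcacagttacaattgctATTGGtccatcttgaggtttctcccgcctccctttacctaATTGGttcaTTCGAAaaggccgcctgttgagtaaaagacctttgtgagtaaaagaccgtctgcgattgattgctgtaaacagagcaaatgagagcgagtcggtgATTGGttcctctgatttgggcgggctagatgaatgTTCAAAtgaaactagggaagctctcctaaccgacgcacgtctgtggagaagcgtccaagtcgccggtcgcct
Top2b: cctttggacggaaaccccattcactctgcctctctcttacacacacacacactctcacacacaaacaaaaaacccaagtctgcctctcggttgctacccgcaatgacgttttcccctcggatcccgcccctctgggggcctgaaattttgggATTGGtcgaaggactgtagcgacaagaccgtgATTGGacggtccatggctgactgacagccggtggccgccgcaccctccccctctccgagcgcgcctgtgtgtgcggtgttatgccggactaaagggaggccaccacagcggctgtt
Tdp1: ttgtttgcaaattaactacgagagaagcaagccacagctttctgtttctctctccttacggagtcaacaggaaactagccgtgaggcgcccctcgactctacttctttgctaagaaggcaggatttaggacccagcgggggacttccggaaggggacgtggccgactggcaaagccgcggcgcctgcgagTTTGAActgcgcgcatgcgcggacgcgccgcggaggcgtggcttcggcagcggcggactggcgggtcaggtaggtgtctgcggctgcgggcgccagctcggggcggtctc

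The Top2a window held 4 matches to CCAAT, all on the opposite strand, beginning at -239, -201, -161 and -57 counted from the start, with the last upstream base as -1. It also held TTCGAA at -152 and TTTGAA, on the opposite strand, at -22. The Top2b window held 2 matches to CCAAT, at -98 and -66, and no match to TTTGAA or TTCGAA. The Tdp1 window held TTTGAA at -60 and no CCAAT. Among 27457 windows of the same length, 37.7% held at least 1 CCAAT, 11.5% at least 2 and 0.754% (207) at least 4, while 18.1% held TTTGAA and 1.77% TTCGAA. The GC-box core GGGCGG occurred 4 times in the Top1 window and once each in those of Top2a, Top2b, Tdp1 and Tdp2, against 34.9% of all windows with at least 1 and 5.00% with at least 4. In the Top1 window the matches at -17, -13 and -9 overlapped in 1 stretch. Overlapping matches were counted separately in every window. The E2F-type sequences TTTCCCGC and TTTGGCGC (1.03% and 0.521% of all windows) had no match in the 7 windows found. These are matches of letters in a window and no measure of binding.

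Since counts of genes of different length cannot be compared directly, the balance of the isoforms was taken from the authors' TPM values, which are scaled by length. Top2a made up 67.7%, 66.5% and 66.6% of the summed TPM of Top2a and Top2b in SMNV libraries, against 43.8%, 43.2% and 43.1% in Dox libraries. Top2a was therefore the more abundant type IIA transcript in each SMNV library and the less abundant one in each Dox library. The mean ratio of Top2a to Top2b was 2.03 ± 0.06 in SMNV and 0.765 ± 0.012 in Dox (SD, n = 3 each, exact two-sided permutation p = 0.1, the smallest that 3 against 3 libraries allow). In bulk RNA, more cells that carry a transcript and more of it per cell cannot be told apart, which holds for every level given here.

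The type IB genes also moved apart. Top1 encodes the nuclear enzyme that relieves supercoils ahead of RNA and DNA polymerases. It stood at 104, 101 and 106 CPM in SMNV libraries, against 136, 124 and 129 CPM in Dox libraries, with no overlap. Top1 fell, with a log2 fold change of -0.33 ± 0.06 (SE; edgeR adjusted p = 3.6e-04), 0.797 times the Dox level (95% interval 0.727 to 0.874). Its deposited counts had decimals in all 6 libraries, unlike those of the other 7 genes, so some of its reads may have been divided with another row.

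Top1mt encodes the mitochondrial type IB enzyme, which acts on mitochondrial DNA. It stood at 8.61, 8.06 and 8.37 CPM in SMNV libraries, against 5.51, 7.26 and 6.06 CPM in Dox libraries. The groups did not overlap in CPM, but Dox 2 came near the SMNV values, and on TPM values Dox 2 lay inside the SMNV range. The log2 fold change was 0.41 ± 0.14 (SE; edgeR adjusted p = 0.022), 1.33-fold with a 95% interval of 1.08 to 1.65. This rise rested on 166 to 176 counts per SMNV library and 113 to 138 per Dox library, and it did not pass without Dox 1 (adjusted p = 0.080), Dox 3 (0.067) or SMNV 1 (0.061), or on TPM values (0.139 with limma, log2 fold change 0.20). Over its 14 alternatives the adjusted p ran from 0.0098 to 0.140.

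Neither type IA gene passed the test. Top3a, whose product works with the BLM helicase on recombination intermediates and also enters mitochondria, stood at 15.7, 16.3 and 13.8 CPM in SMNV and 12.0, 14.9 and 13.0 CPM in Dox. The groups overlapped, and the log2 fold change was 0.20 ± 0.12 (SE; edgeR adjusted p = 0.148), with a 95% interval of -0.05 to 0.45. Top3b, whose product acts on RNA as well as DNA together with TDRD3, stood at 31.6, 37.0 and 35.6 CPM in SMNV and 32.6, 35.7 and 36.5 CPM in Dox. Its log2 fold change was -0.01 ± 0.09 (SE; edgeR adjusted p = 0.95), with a 95% interval of -0.20 to 0.18, so that a change beyond 1.14-fold in either direction lay outside the interval.

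Of the phosphodiesterases, Tdp1 rose. It stood at 13.2, 15.0 and 13.5 CPM in SMNV libraries, against 7.02, 8.10 and 7.88 CPM in Dox libraries. Each SMNV library was higher than every Dox library. The log2 fold change was 0.85 ± 0.12 (SE; edgeR adjusted p = 2.5e-05), 1.81-fold with a 95% interval of 1.51 to 2.16. This was the second largest change of the group in size after that of Top2a, from far fewer reads, 267 to 319 counts per SMNV library and 144 to 160 per Dox library.

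Tdp2, whose product removes trapped TOP2, stood at 17.2, 16.1 and 19.2 CPM in SMNV and 20.0, 16.3 and 20.6 CPM in Dox. SMNV 1 and SMNV 3 lay within the Dox range and SMNV 2 just below it, and the log2 fold change was -0.12 ± 0.11 (SE; edgeR adjusted p = 0.39), with a 95% interval of -0.36 to 0.12. The ratio of Tdp2 to Tdp1 in TPM was 1.50, 1.24 and 1.67 in SMNV libraries, against 3.42, 2.36 and 3.08 in Dox libraries. Tdp2 was the more abundant of the pair in all 6 libraries, and the ratio was lower in each SMNV library. The log2 ratio averaged 0.54 ± 0.22 in SMNV and 1.54 ± 0.28 in Dox (SD, n = 3 each, exact two-sided permutation p = 0.1, the smallest possible).

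**Figure D2:**
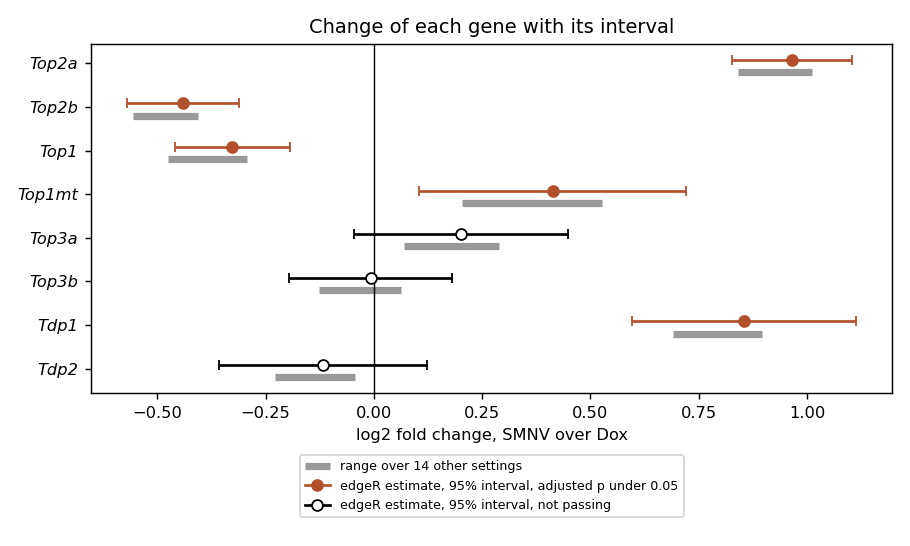
The log2 fold change of SMNV over Dox for each gene with its 95% interval (points; filled where the adjusted p was under 0.05), and the range of the value over 14 other settings (grey). Top2a at 0.97 and Tdp1 at 0.85 lie to the right, Top2b at -0.44 and Top1 at -0.33 to the left, and the intervals of Top3a, Top3b and Tdp2 hold 0.

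Of the 8 genes, 5 passed at an adjusted p under 0.05, beside 60.4% of all tested genes. Higher in SMNV were 3 of 8, against a background of 30.5%, and lower were 2 of 8, against 29.9%. The groups did not overlap in CPM for 5 of 8, beside 66.9% of tested genes. These shares are near the background. The median log2 fold change of the 8 genes was 0.10, and that of all tested genes -0.01.

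The order of the genes by level differed between the groups. In SMNV libraries mean TPM ran from Top2a (131 ± 8.93) through Top2b (64.4 ± 2.46), Top1 (57.1 ± 2.27), Top3b (21.2 ± 1.08), Tdp2 (17.0 ± 1.56), Tdp1 (11.7 ± 0.670) and Top1mt (8.24 ± 0.535) to Top3a (5.62 ± 0.555; SD, n = 3). No neighbours in that order overlapped. In Dox libraries Top2b came first at 94.7 ± 4.66 TPM, followed by Top1 (79.5 ± 3.72), Top2a (72.5 ± 4.45), Top3b (23.2 ± 1.39), Tdp2 (20.0 ± 2.48), Top1mt (7.03 ± 0.811), Tdp1 (6.85 ± 0.595) and Top3a (5.30 ± 0.591; SD, n = 3). There the libraries of Top1 and Top2a, of Top3b and Tdp2, and of Top1mt and Tdp1 overlapped. Top2a thus held the first place in SMNV and the third in Dox, and Tdp1 the sixth in SMNV and the seventh in Dox.

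Summed over the 6 topoisomerase genes, the level was 287 ± 12.5 TPM in SMNV and 282 ± 10.4 TPM in Dox (SD, n = 3 each, exact two-sided permutation p = 0.7). On scaled CPM per kilobase the sum was 161 ± 2.36 in SMNV and 143 ± 5.18 in Dox (p = 0.1, exact permutation test), so the comparison of the total depends on the scale. On that scale type IIA transcripts took 70.6 ± 0.788% of the sum in SMNV and 62.9 ± 1.15% in Dox (SD, n = 3 each, exact permutation p = 0.1). On TPM values type IIA transcripts took 67.9 ± 1.05% of the sum in SMNV and 59.2 ± 1.06% in Dox, and type IB transcripts 22.8 ± 0.782% in SMNV and 30.7 ± 0.102% in Dox (SD, n = 3 each, exact permutation p = 0.1 for both). Type IA transcripts took 9.36 ± 0.694% in SMNV and 10.1 ± 0.976% in Dox (exact permutation p = 0.4).

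**Figure D3:**
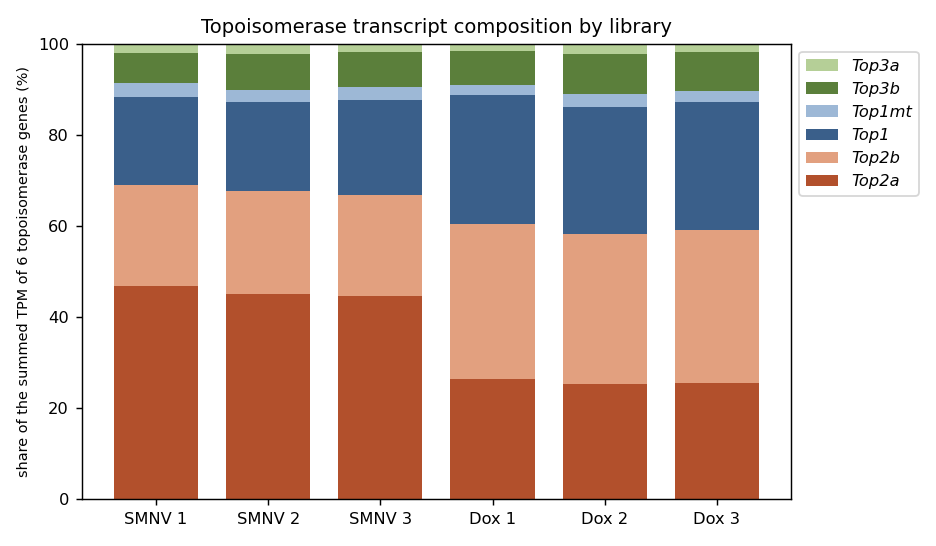
Share of each topoisomerase gene in the summed TPM of the 6 genes, as stacked bars from 0 to 100% for each SMNV and Dox library. Top2a takes 44.6% to 46.7% in SMNV and 25.2% to 26.4% in Dox, while Top2b takes 22.3% to 22.7% in SMNV and 33.1% to 33.9% in Dox and Top1 takes 19.4% to 20.8% in SMNV and 27.9% to 28.4% in Dox.

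Top2a is transcribed with the genes of G2 and mitosis, and its change was set beside 23 such genes. All 23 rose, by between 0.79 (the proliferation marker Mki67) and 2.47 (the anaphase activator Cdc20) on the log2 scale, with a median of 1.36, beside 30.5% higher and a median of -0.01 among all tested genes. Of the 23, 21 had a larger log2 fold change than Top2a, and 2, Anln and Mki67, a smaller one. Per library, log2(TPM + 1) of Top2a exceeded the mean of the 23 genes by 0.59, 0.54 and 0.52 in SMNV, against 1.14, 1.01 and 1.06 in Dox. Top2a stood above the average of these genes in every library, and by less in each SMNV library (0.55 ± 0.04 in SMNV and 1.07 ± 0.06 in Dox, SD, n = 3 each, exact two-sided permutation p = 0.1, the smallest possible). The choice of these genes was made with earlier results of these data known.

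The genes with the pattern nearest to Top2a were found by the root mean square difference of log2 CPM over the 6 libraries, after centring each gene, among 9642 genes with a symbol and a mean of at least 5 CPM. They were Arhgap11a (difference 0.019), a GTPase-activating protein gene, Anln (0.022), which encodes the actin-binding scaffold anillin, Gas2l3 (0.028), a cytoskeletal linker gene, Cdca5 (0.048), which encodes the cohesin protector sororin, and Atg4d (0.057), an autophagy protease gene. Their log2 fold changes were 0.95, 0.95, 0.97, 0.90 and 0.89. Among the genes nearest to Top2b were the neddylation cofactor gene Dcun1d1 (0.0066), Dennd10 (0.0082), Sh3glb1 (0.016) and the sarcoglycan gene Sgcb (0.018), with log2 fold changes of -0.45, -0.44, -0.45 and -0.42. With 6 libraries in 2 groups the measure mostly reflects the difference between the groups, and it is given as a description.

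Genes that process single-strand breaks and the ends left by TDP1 mostly rose. The 14 tested genes comprised 8 that rose, 2 that fell and 4 that did not pass, with a median log2 fold change of 0.42. Among all tested genes 30.5% were higher and 29.9% lower, and the lists below stand beside the same background. Xrcc1, the scaffold protein of single-strand break repair, stood at 33.9 ± 4.08 CPM in SMNV and 13.0 ± 1.81 CPM in Dox (SD, n = 3 each), a log2 fold change of 1.38 ± 0.12 (SE; edgeR adjusted p = 1.9e-07). The flap endonuclease gene Fen1 rose by 0.93 ± 0.09 and the DNA ligase gene Lig1 by 0.59 ± 0.06 on the log2 scale. Ercc1, a subunit of the 3′ flap nuclease that can act in place of TDP1, rose by 0.92 ± 0.12. Ercc4, of the same nuclease and named after its values were seen, did not pass (0.14 ± 0.09, edgeR adjusted p = 0.22). Parp1, the sensor of strand breaks, rose by 0.25 ± 0.07 and did not pass on TPM values (adjusted p = 0.201, limma). The fallers, named after their values were seen, were the ligase gene Lig3 (-0.28 ± 0.06) and the polymerase gene Polb (-0.35 ± 0.09).

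Factors that mark or strip trapped proteins from DNA were lower more often than higher. The 17 tested rows comprised 3 that rose, 9 that fell and 5 that did not pass, with a median log2 fold change of -0.17. Under the alternative settings 7 to 10 fell. The risers were Tex264 (0.98 ± 0.10), an adaptor of the segregase p97, the SUMO ligase gene Pias4 (1.12 ± 0.11) and the protease gene Fam111a (0.63 ± 0.10). Vcp, which encodes p97 itself, fell to 516 ± 6.38 CPM in SMNV, against 753 ± 71.4 CPM in Dox (SD, n = 3 each), a log2 fold change of -0.55 ± 0.07 (SE; edgeR adjusted p = 1.0e-05). Zfp451, the SUMO ligase that opens trapped TOP2 to TDP2, changed by -0.31 ± 0.08, and Topors, which encodes a TOP1-binding ligase, by -0.42 ± 0.07. The DNA-dependent protease gene Sprtn, like these a gene named after its values were seen, did not pass (-0.15 ± 0.10, edgeR adjusted p = 0.24).

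Genes of double-strand break end processing and end joining mostly fell. The 14 tested genes comprised 8 that fell, 1 that rose and 5 that did not pass, with a median log2 fold change of -0.31. The end-joining ligase gene Lig4 stood at 69.7 ± 6.50 CPM in SMNV and 138 ± 5.73 CPM in Dox (SD, n = 3 each), a log2 fold change of -0.98 ± 0.07 (SE; edgeR adjusted p = 5.3e-08). The Ku subunit gene Xrcc5 changed by -0.62 ± 0.08, the kinase gene Prkdc by -0.55 ± 0.08, and Nbn, a subunit of the complex that trims blocked ends, by -0.49 ± 0.07. The riser, named after its values were seen, was the end-joining factor gene Paxx at 1.25 ± 0.18. Mre11, the nuclease that can remove trapped TOP2 without TDP2, was also named after its values were seen and did not pass, at -0.15 ± 0.09 (edgeR adjusted p = 0.156).

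**Figure D4:**
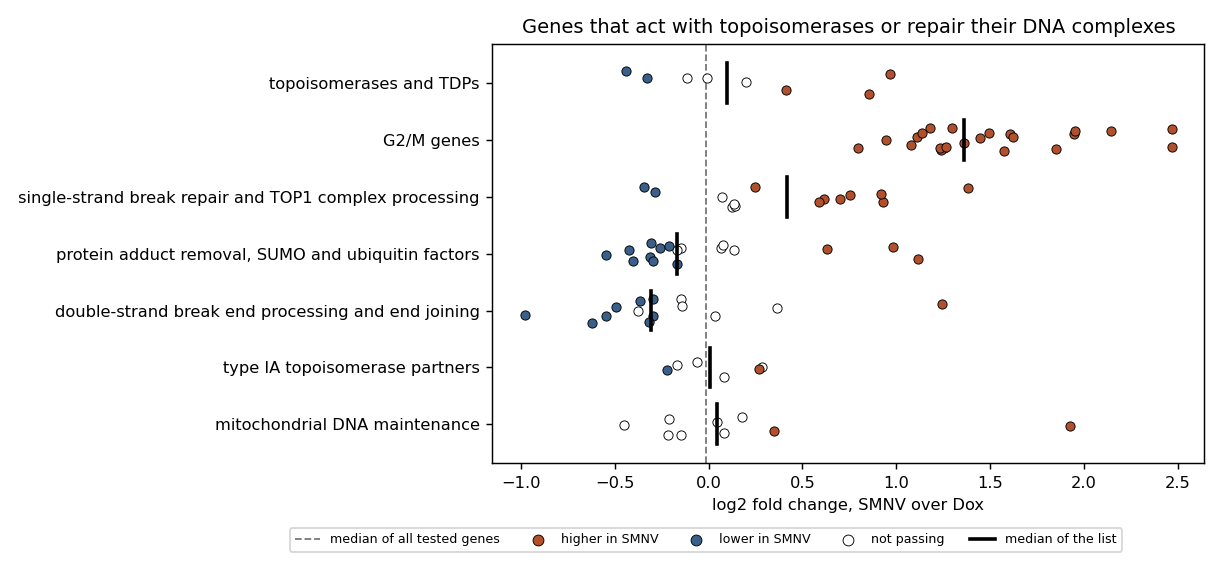
The log2 fold change of SMNV over Dox of each tested gene in the 8-gene group and in 6 lists of genes that act beside it; filled points passed the test, the short line is the list's median and the dashed line the median of all tested genes (-0.01). G2/M genes (0.79 to 2.47) lie to the right of most topoisomerase genes, single-strand break repair has a median of 0.42 and double-strand break repair of -0.31.

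The partners of the type IA enzymes and the genes of mitochondrial DNA had medians near that of all tested genes. Of 6 type IA partners, 1 rose, 1 fell and 4 did not pass, with a median log2 fold change of 0.01. Rmi1, a subunit of the complex of TOP3A with BLM, fell (-0.22 ± 0.07), and Ercc6l, a translocase of stretched mitotic DNA bridges, rose (0.27 ± 0.11, edgeR adjusted p = 0.042). The call of Rmi1 was lost without SMNV 3 (adjusted p = 0.051), and that of Ercc6l without Dox 2, Dox 3, SMNV 2 or SMNV 3, on TPM values and with the replicate number as a block (0.057 to 0.307 over these settings). Blm itself had a log2 fold change of 0.08 ± 0.11, Rmi2 of 0.28 ± 0.12 and Tdrd3, the partner of TOP3B, of -0.17 ± 0.09, and none passed. On TPM values Tdrd3 was lower (adjusted p = 0.029, limma), and Rmi2 was higher without SMNV 2 (edgeR adjusted p = 0.028). Of 9 genes that maintain mitochondrial DNA, 2 rose and 7 did not pass (median 0.05). Polrmt, the mitochondrial RNA polymerase gene, stood at 8.27 ± 2.18 CPM in SMNV and 2.15 ± 0.875 CPM in Dox (SD, n = 3 each), a log2 fold change of 1.93 ± 0.27 (SE; edgeR adjusted p = 2.0e-05), and Polg, the polymerase that copies mitochondrial DNA, rose by 0.35 ± 0.09 but did not pass on TPM values (adjusted p = 0.071, limma). The single-strand binding protein gene Ssbp1 (-0.22 ± 0.09) and the transcription elongation factor gene Tefm (-0.45 ± 0.21) did not pass, though both were lower on TPM values (adjusted p = 0.0017 and 0.031, limma), and Tefm also without Dox 1 (0.019, edgeR). Spo11, which encodes the topoisomerase-like enzyme of meiotic breaks, had no counts in any library.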

How the data were processed

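Poly(A) RNA of rat mesenchymal stem cells was measured in 6 libraries. The labels' protocols give TRIzol extraction and the VAHTS Universal V6 kit, and fastp, HISAT2 and HTSeq with the build mRatBN7.2 are listed, without roles or versions, in the submitters' processing notes. No source used here gives the strand setting, so whether reads of overlapping antisense genes were separated is not known. The authors deposited estimated counts per gene, not normalized (17.9% to 18.8% of values above 0 had decimals), and TPM values, scaled by length to a common sum. Counts were rounded, although the design assumed whole counts. Rows passing filterByExpr (12614 of 30560) were scaled by TMM and compared, SMNV over Dox, with edgeR 4.0.16 in R 4.3.3 (glmQLFit, glmQLFTest; two-sided; Benjamini-Hochberg adjustment over all tested rows, threshold 0.05). The SE is the absolute log2 fold change over the square root of F, and 95% intervals use the t distribution. Ratios and shares per library used TPM and exact permutation tests. Of 6514 rows without a symbol, 614 received one through their Entrez number from RefSeq (GRCr8), and 7 of the 8 genes matched a RefSeq promoter window. Alternatives were DESeq2 1.42.0, limma 3.58.1 (voom; log2 TPM with pseudocounts of 1 and 0.1), other scalings, no filter, a replicate block and leaving out each library.

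The methods were run on simulated counts in which far fewer genes changed than passed here. That run could not test how the scaling behaves in these data. All 8 genes are reported; list genes were named as up to 4 with the smallest p in each list plus a fixed few, and for others the text says that their values were known when they were picked. The members and lists were chosen with earlier results of these data known. No list was given a set test. Sumo2, Gcna, Top6bl and Cks2 matched no row and were not analysed here. A few genes met by these rules are not reported here. Sumo3 had 2 tested rows, counted separately.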

Additional observations from a re-analysis of the deposited data

How the results depend on the processing

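Top2a, Tdp1, Top2b and Top1 kept their direction and stayed past the threshold under all 14 alternatives, with log2 fold changes of 0.84 to 1.01, 0.69 to 0.90, -0.56 to -0.41 and -0.48 to -0.29. Top1mt kept its direction (0.20 to 0.53) and missed the threshold on log2(TPM + 1) at 0.20 and on log2(TPM + 0.1) at 0.23; without single libraries it ranged from 0.33 to 0.53, and did not pass without Dox 1, Dox 3 or SMNV 1. Top3a and Tdp2 never passed. Top3b, never passing either, changed sign with no filter (0.0052) and without single libraries (-0.056 to 0.062). On log2(TPM + 1) the median of all tested genes moved to -0.10 from -0.01 and 39.8% of calls were higher in place of 50.4%, and Top1 (-0.47) and Top2b (-0.55) lay below that median too. On TPM values with either pseudocount the calls of 5 lists moved: type IA partners had 0 higher and 2 lower, mitochondrial DNA maintenance 1 higher and 2 lower, single-strand break repair 7 higher, adduct removal 10 lower and double-strand break repair 10 lower. Adduct removal had 7 lower, in place of 9, with RLE or upper-quartile scaling, DESeq2, no filter or the replicate block. It also had 7 lower without any single SMNV library and 8 without any single Dox library. On TPM values the sign of Blm turned (-0.033 and -0.037 with pseudocounts of 1 and 0.1). With the replicate block type IA partners had 0 higher; without single libraries they had 0 to 1 higher and 0 to 1 lower, and mitochondrial DNA maintenance 0 to 1 lower. A further 43 genes, chosen by the naming rules or named after their values were seen, gave 602 values under alternatives. Of these values, 580 kept direction and side of the threshold, 12 lost their call, 8 gained one and 2 turned sign. Many of these genes were picked for a small p, which by itself makes lost calls fewer. The measures that follow were recomputed only on scaled CPM per kilobase and without each library in turn. The difference between groups was 23.2 to 23.8 percentage points in the Top2a share. It was -1.15 to -0.88 in the log2 ratio of Tdp2 to Tdp1, and -0.55 to -0.49 for Top2a relative to G2/M genes. Each difference moved by less than the SD of its measure in SMNV. Without SMNV 1 the Top2a share moved by about its SD in Dox (0.38). The cause of these moves was not tested.

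Libraries with the same number did not deviate together (correlations of deviations 0.0076, -0.12 and 0.0016), so the numbers were not taken as pairs. With the replicate block 7387 genes passed in place of 7614, and no call among the 8 genes changed. Depth limits Top1mt most: counting error alone gives a coefficient of variation of 8.22%, against 1.24% for Top2a.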
